A study of Homo sapiens with 16 samples.

Results

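Colon fibroblasts that had been through repeated pulses of inflammatory cytokines and had then been given the histone deacetylase inhibitor belinostat were compared with fibroblasts of the same line that had received neither. The comparison holds 8 of the 16 RNA-seq libraries of the series, 4 on each side, and it was chosen by the labels and covers every gene in the table. It asks what was still changed, relative to resting cells, after the compound had been given, and what was changed that the cytokine pulses on their own had not left changed. All cells were Ccd18-Co, a fibroblast line from normal human colon, so every group is a model of 1 line. Unstimulated cells received the vehicle DMSO and no cytokine (their columns carry the word none, their titles DMSO). The belinostat group received 3 pulses of a mix of IL-1B at 0.1 ng/ml and 10 ng/ml each of IL-17A, TNF and OSM, each pulse 72 h long and followed by 96 h of recovery. After a rest of 1 week these cells were given belinostat at 250 nM for 5 days, and RNA was collected 2 weeks after the end of the treatment. Doses are those of the labels. Parts of the study's text give a lower dose of IL-1B, a far higher dose of belinostat and fewer replicates per group for its RNA-seq. The study also states that outlying samples may have been left out, and all 4 libraries of each group were kept here. Pulsed cells given DMSO in place of the compound are called vehicle here, and their 4 libraries were used to sort the genes. The remaining 4 libraries, from pulsed cells given GSK-J4 at 10 µM, entered the scaling, the filter on low counts, the estimate of the spread and the principal components, but none of the comparisons. No cells received belinostat without cytokines, so in the comparison with unstimulated cells the action of the pulses and that of the compound cannot be told apart.

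Histone deacetylases remove acetyl groups from histone tails and from many other proteins, and inhibitors such as belinostat raise acetylation, which is known to increase the transcription of some genes and to lower that of others. Fibroblasts of the gut wall lay down the collagen and elastic matrix, supply WNT and BMP signals to the epithelium, and, when exposed to TNF, IL-1, IL-17 and oncostatin M, secrete chemokines that draw in neutrophils and monocytes and proteases that cut the matrix. Such cells are called inflammatory fibroblasts, and cells rich in smooth muscle actin are called contractile.

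The 8 libraries held 14.4 to 19.5 M estimated counts each, and values below are counts divided by the library's size factor (normalized counts). Defining fibroblast genes were abundant in every library, among them DCN at a mean of 154800 normalized counts in unstimulated cells and 154300 under belinostat. Of the 10 listed fibroblast genes, LUM and S100A4 were called higher under belinostat and FBLN1 lower. Some markers of other cells (KRT20, MUC2, ERG, CD3E, MS4A1, ITGAM and SOX10) were at 0 in all 8. Other members of the same lists had counts, among them KRT18 at a mean of 1421 in unstimulated cells and TEK at 8032, and the whole lists are given below. Belinostat replicate 17 stood apart from the other 3 libraries of its group. Its score on the second principal component was -12.977, against -1.424 to 0.784 for replicates 18 to 20, and its mean squared deviation from them, in units of sampling noise, was 27.9 to 32.1, against 4.26 to 4.99 among those 3. The same measure was 2.85 to 10.8 between vehicle libraries and 6.56 to 29.6 between unstimulated ones, with the highest value between unstimulated replicates 1 and 3, so the spread within the unstimulated group reached as far. Of the 209 genes named in the text or in the lists behind it, replicate 17 was the lowest of the 4 belinostat libraries for 98 and the highest for 75. The same counts are not given for replicates 18 to 20 or over all tested genes, and many of the 209 were chosen by their calls. Values without it are given beside the main results that it affects.

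**Figure D1:**
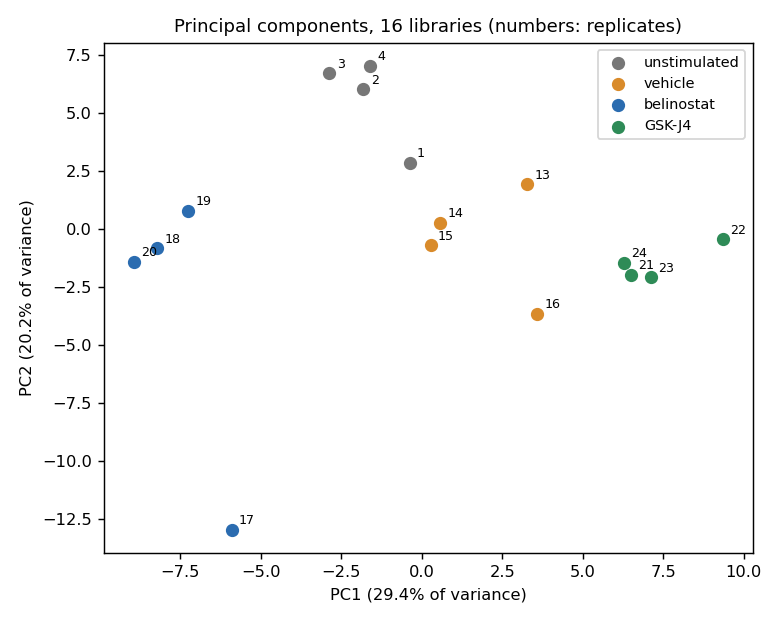
Scores of the 16 libraries on the first and second principal components of the 1000 most variable genes (variance-stabilised scale), one point per library, coloured by group and numbered by replicate. Belinostat replicates 18 to 20 lie together at the left, at -8.944 to -7.248 on the first component, and replicate 17 lies far below them on the second.

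Against unstimulated cells, DESeq2 called 1461 of the 14209 genes tested (10.3%) at an adjusted p under 0.05 in the cells that had received cytokines and belinostat. Of these, 783 (5.51% of genes tested) were higher and 678 (4.77%) were lower. Counts of called genes in the gene lists below are to be read beside these shares. Most changes were small, with a median size of 0.34 on the log2 scale among the called genes. A change of more than 2-fold was seen for 106 genes that rose and 47 that fell, and one beyond 1.5 on the log2 scale for 45 and 18. The 4 libraries of each group did not overlap for 1134 of the called genes (77.6%), where 1750 of all 14209 tested genes (12.3%) showed no overlap. Vehicle against the same unstimulated libraries gave 282 calls among 16240 genes tested (1.74%), and belinostat against vehicle gave 889 among 14209 (6.26%). The comparisons share libraries, so the counts below sort genes and do not test an overlap. Without replicate 17 the count against unstimulated cells was 1466, of which 1099 were among the 1461.

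Genes were sorted by these tests. A total of 152 genes stayed changed, that is, they were called in vehicle and called in the same direction under belinostat, 107 higher and 45 lower. They make up 53.9% of the vehicle calls and 10.4% of the belinostat calls. Another 569 genes were new, being called against unstimulated cells and in the same direction against vehicle, with no call in vehicle, 285 higher and 284 lower. For 732 genes the call was made against unstimulated cells only, and whether they differ between belinostat and vehicle is not decided by these libraries. In 8 genes the change turned into the opposite direction. Of the vehicle calls, 57 moved back, meaning that belinostat differed from vehicle in the opposite direction and no longer from unstimulated cells at the threshold, and 65 were undecided. Without replicate 17 the counts were 197 that stayed, 641 new, 16 turned and 118 moved back, with 612 called against unstimulated cells only, and 51 of the 57 genes that moved back were among the 118. The calls in vehicle, which share the fit, then numbered 453.

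**Figure D2:**
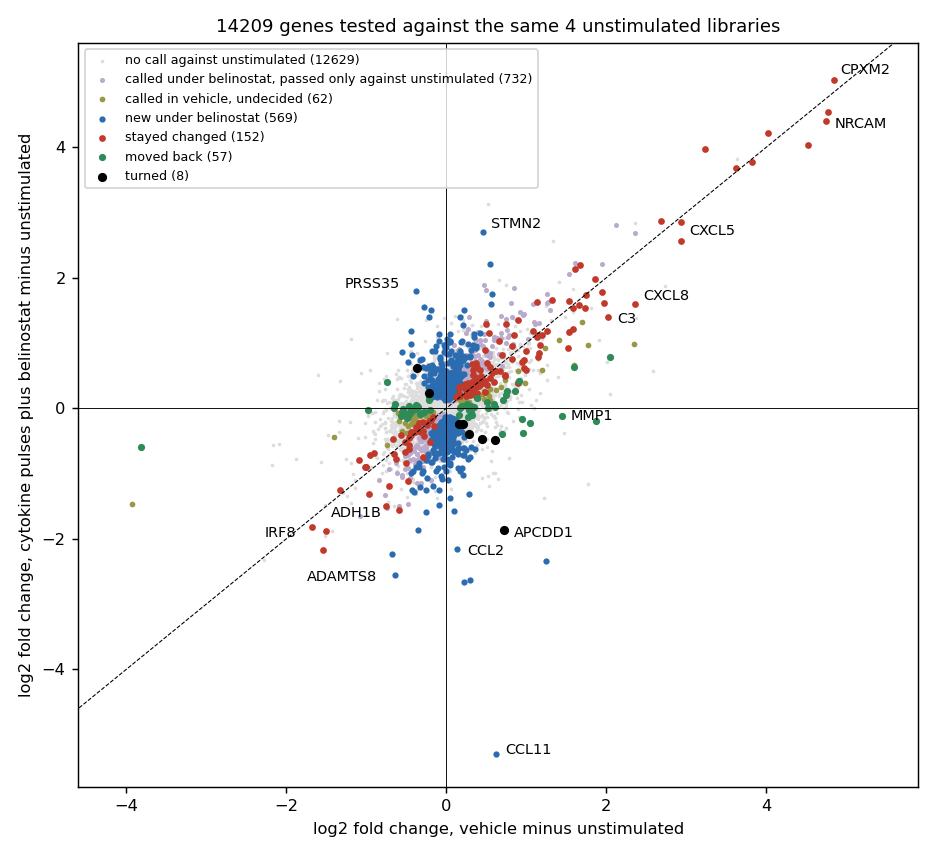
Log2 fold change against the same 4 unstimulated libraries for 14209 tested genes, vehicle on the horizontal axis and cytokine pulses plus belinostat on the vertical axis, coloured by class (the dashed line marks equal change). Genes that stayed changed (152) run along the line, new genes (569) scatter about the vertical line at 0, and APCDD1 lies at 0.72 and -1.87.

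Promoters of 6 chemokine genes are shown first, because chemokines appear both among the genes that stayed changed and among those newly changed. The sequences are the 150 bases before the RefSeq start (GRCh38.p14, on the strand of the gene, 5′ to 3′), with every match on either strand to TATAAA (the TATA box), to the GC box core GGGCGG, to the AP-1 site TGACTCA or to the NF-kB-type site GGAAANTCC in capitals, and the last 2 GGGCGG matches of CXCL14 overlap. CXCL5 (chr4:73998678-73998827, minus strand), CXCL6 (chr4:73836528-73836677, plus strand) and CXCL8 (chr4:73740419-73740568, plus strand) stayed higher. CCL7 (chr17:34270071-34270220, plus strand) and CCL8 (chr17:34319285-34319434, plus strand) were newly lower, and CXCL14 (chr5:135578992-135579141, minus strand) was newly higher.
CXCL5: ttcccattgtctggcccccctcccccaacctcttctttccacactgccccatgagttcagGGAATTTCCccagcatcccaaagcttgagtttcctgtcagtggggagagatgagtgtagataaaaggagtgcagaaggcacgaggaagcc
CXCL6: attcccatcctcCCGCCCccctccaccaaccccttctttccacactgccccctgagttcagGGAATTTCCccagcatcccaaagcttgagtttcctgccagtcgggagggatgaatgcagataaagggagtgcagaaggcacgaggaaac
CXCL8: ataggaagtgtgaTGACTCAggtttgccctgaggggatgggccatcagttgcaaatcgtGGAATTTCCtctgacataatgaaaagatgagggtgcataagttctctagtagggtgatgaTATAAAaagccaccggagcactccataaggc
CCL7: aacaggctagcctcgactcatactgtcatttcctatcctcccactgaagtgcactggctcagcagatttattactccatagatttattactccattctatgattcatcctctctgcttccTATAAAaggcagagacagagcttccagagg
CCL8: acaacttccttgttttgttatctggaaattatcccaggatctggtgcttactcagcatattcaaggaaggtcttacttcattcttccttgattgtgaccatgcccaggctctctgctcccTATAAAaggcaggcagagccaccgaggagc
CXCL14: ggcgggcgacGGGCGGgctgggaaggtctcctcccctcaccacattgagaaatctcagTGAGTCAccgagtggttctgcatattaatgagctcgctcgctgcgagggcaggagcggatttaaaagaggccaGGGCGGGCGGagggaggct
The 3 promoters of genes that stayed higher each held a match to GGAAANTCC, whose first base lay 90 bases before the start in CXCL5, 89 in CXCL6 and 91 in CXCL8. The CCL7 and CCL8 promoters held none in this window, and both held TATAAA with its first base 30 bases before the start. CCL2 and CCL11, the more abundant CC genes that fell, had no match in the promoter table and are not analysed here. Over the 250 bases before the start, GGAAANTCC was found in 6 of the 82 stayed-higher genes with a promoter in the table (7.32%; COL7A1, CXCL3, CXCL5, CXCL6, CXCL8 and TNFAIP3), in 0.881% of the newly higher, in 1.91% of the newly lower and in 1.39% of all tested genes with one. The CXCL genes among them are related and lie close together on chromosome 4, so their matches are not separate instances. TATAAA was found in 15.9% of the stayed-higher genes and in 5.48% of all tested genes with a promoter. For GGGCGG the shares were 57.3% and 66.2%, and for TGACTCA 3.66% and 2.57%. No share was taken for the genes that moved back or were undecided. The shares therefore cannot set apart genes that stayed higher from genes that the pulses raised. They are descriptions and carry no test.

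The genes that stayed higher differed from unstimulated cells by about as much as in vehicle. Their median log2 fold change was 0.63 under belinostat and 0.60 in vehicle, and 4 of the 107 were called lower than vehicle. The sorting itself favours such closeness, because the class asks for a call in both comparisons, which share the unstimulated libraries. Vehicle calls that were no longer called under belinostat had been set apart as moved back or undecided. CPXM2, a secreted member of the carboxypeptidase family, was the largest (ENSG00000121898.13, GRCh38 chromosome 10, 123706207 to 123940267, minus strand). It read 11.6, 10.0, 9.77 and 15.6 normalized counts in unstimulated replicates 1 to 4 and 389, 418, 358 and 364 in belinostat replicates 17 to 20, with 359, 373, 284 and 326 in the vehicle libraries. The 3 groups formed 2 levels, one for unstimulated cells and one for both pulsed groups. The log2 fold change was 5.03 (SE 0.23, DESeq2 adjusted p 7.24e-99) against unstimulated cells and 0.19 (adjusted p 0.475) against vehicle. The same step was seen in NRCAM, a neuronal cell adhesion molecule, which went from 2.90, 6.01, 6.21 and 6.83 to 136, 133, 122 and 118 normalized counts, a difference of 4.54 on the log2 scale (SE 0.33). STEAP2, a metalloreductase of the cell membrane, went from 6.75, 8.01, 10.7 and 11.7 to 172, 171, 182 and 169 (4.22, SE 0.26). Its neighbour and close relative STEAP1 was low, at 4.83, 1.00, 0.888 and 0 against 36.3, 29.3, 46.4 and 29.1, and rose by 4.40 (SE 0.60). GCGR, the glucagon receptor, rose by 3.77 (SE 0.30) and GABRA2, a subunit of the GABA receptor, by 2.86 (SE 0.28). In GABRA2 replicate 17 read 335 against 135 to 178 in the other 3, and the log2 fold change without it was 2.48.

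Neutrophil chemokines were the best known of the genes that stayed higher. CXCL8, or interleukin 8, read 85.9, 85.1, 63.9 and 75.2 normalized counts in unstimulated cells, 287, 319, 369 and 609.5 in vehicle and 271, 198, 243 and 228 under belinostat. Every belinostat library lay above every unstimulated one and below every vehicle one. The log2 fold change was 1.60 (SE 0.22, adjusted p 1.62e-10) against unstimulated cells and -0.75 (SE 0.21, adjusted p 0.00973) against vehicle. CXCL5 read 21.2, 10.0, 7.99 and 10.7 in unstimulated cells and 88.8, 80.6, 47.5 and 75.8 under belinostat, a rise of 2.56 (SE 0.30), and its difference from vehicle of -0.38 was not called (adjusted p 0.491). CXCL6 rose by 1.21 (SE 0.16), from 683, 528, 404 and 534 to 1342, 1271, 1050 and 1323. CXCL3 rose by 0.61 (adjusted p 0.035), and without replicate 17 its 0.47 was not called (adjusted p 0.176). C3, the central complement component, also stayed higher at a lower level than in vehicle, with 89.8, 133, 122 and 89.8 in unstimulated cells, 473, 337, 351 and 602 in vehicle and 296, 245, 290.2 and 315 under belinostat. Its log2 fold change was 1.40 (SE 0.19) against unstimulated cells and -0.62 (adjusted p 0.0165) against vehicle. The remaining genes of that kind were PF4V1, a platelet factor 4 variant, at 0.92 and -0.60, and SFMBT2, a Polycomb-type chromatin protein, at 0.39 and -0.50. Without replicate 17 the difference of PF4V1 from vehicle was -0.49 and was not called (adjusted p 0.149). PF4V1 and SFMBT2, like STEAP1 above and IRF8 among the falls, were named after their values were seen. Close paralogs such as CXCL1 and CXCL3 may share reads, and that uncertainty is not in the standard errors.

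Several signalling and metabolic genes stayed higher with no call against vehicle. They were DIO2, which activates thyroid hormone (2.13), AK4, a mitochondrial adenylate kinase (1.78), PTGFR, the prostaglandin F receptor (1.73), RGS5, a pericyte gene that dampens G protein signals (1.13), and PRRX1, a mesenchymal homeobox factor (0.84). TNFAIP3, a feedback inhibitor of NF-kB, rose by 0.57 (adjusted p 0.00331). TGFB2 was called higher against vehicle as well, at 74.3, 87.1, 85.2 and 98.6 in unstimulated cells, 199, 229, 213 and 219.5 in vehicle and 247, 303, 254 and 286 under belinostat (1.66, SE 0.13, and 0.34 against vehicle with adjusted p 0.0394). BMP2 showed the same order of groups, at 0.70 against unstimulated cells and 0.32 against vehicle (adjusted p 0.0395), but without replicate 17 the difference from vehicle was 0.17 and was not called (adjusted p 0.122). Replicate 17 set the size of 2 of the large rises. CA12, a carbonic anhydrase, read 619 in it and 138 to 206 in the others, and its log2 fold change was 1.64 with it and 0.92 without. MME, the membrane protease neprilysin, read 2757 and 914 to 1047, and its fold change was 1.62 with it and 1.06 without. Without replicate 17 MME (-0.90, adjusted p 0.0019) and PRRX1 (-0.58, adjusted p 0.00227) were called lower than vehicle.

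Genes that stayed lower had a median log2 fold change of -0.52 under belinostat and -0.47 in vehicle, and none of the 45 was called higher than vehicle. Here too the sorting favours similar values in the 2 pulsed groups. ADH1B, an alcohol dehydrogenase (ENSG00000196616.15, chromosome 4, 99304971 to 99321401, minus strand), read 13800, 13040, 14150 and 13530 in unstimulated cells, 9759, 10100, 8815 and 7347 in vehicle and 3167, 5612, 4874 and 4816 under belinostat. The 3 groups did not overlap and stepped down in that order. The log2 fold change was -1.56 (SE 0.14, adjusted p 2.16e-24) against unstimulated cells and -0.96 (adjusted p 4.66e-09) against vehicle. NTN1, the guidance cue netrin 1, fell further in the same way (-1.12 and -0.64), as did MBP (-1.49 and -0.74), whose replicate 19 read 84.2 against 38.2 to 45.2 in the other 3. Without replicate 17 the difference of MBP from vehicle was -0.61 and was not called (adjusted p 0.0808). FGL2 (-1.32), IRF8, an interferon-regulatory factor at low counts (-1.83), TMEM255A (-1.26), C1orf115 (-1.19) and CNTNAP3C (-0.90), which has near-identical copies, were lower with no call against vehicle. PTGER3, a prostaglandin E2 receptor, fell by 0.90 on the log2 scale (adjusted p 0.0194) and by 0.63 without replicate 17.

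**Figure D3:**
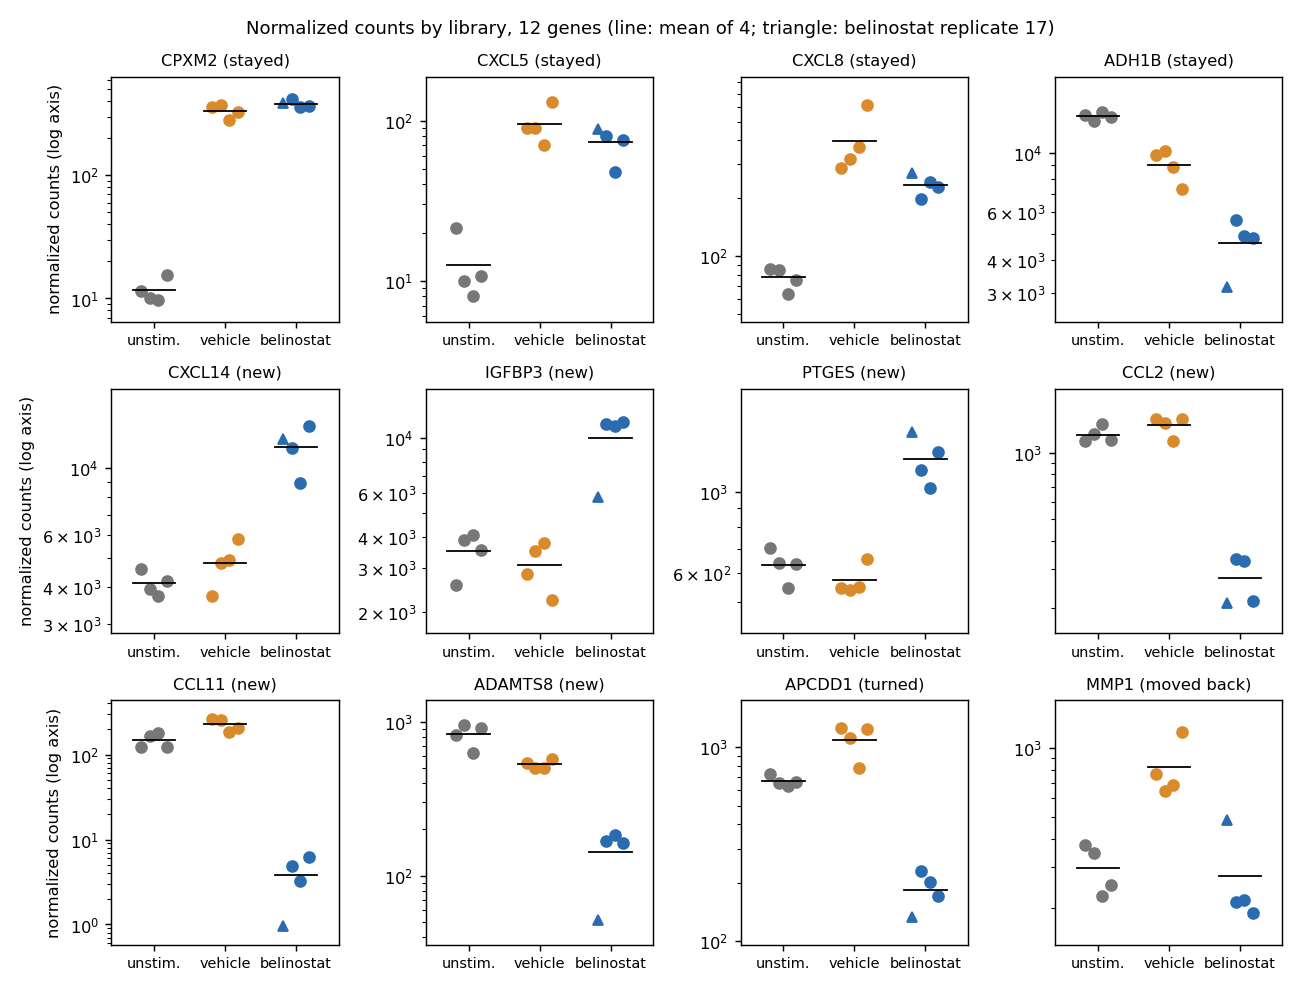
Normalized counts (log axis) of 12 genes in each library of unstimulated cells, vehicle and belinostat (line, mean of 4 libraries, and triangle, belinostat replicate 17). CPXM2, CXCL5, CXCL8 and ADH1B stayed changed, the 6 genes from CXCL14 to ADAMTS8 were called against unstimulated cells under belinostat and not in vehicle (the vehicle libraries of CCL11 lay above all unstimulated ones and those of ADAMTS8 below them), APCDD1 went from above unstimulated cells in vehicle to below them, and 3 of the 4 belinostat libraries of MMP1 lie below all unstimulated ones.

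Secreted factors were among the newly higher genes. CXCL14, a chemokine of resting stroma and epithelium (ENSG00000145824.13, chromosome 5, 135570679 to 135579279, minus strand), read 4604, 3953, 3746 and 4184 normalized counts in unstimulated cells, 3738, 4805, 4915 and 5782 in vehicle and 12510, 11670, 8961 and 13860 under belinostat. All 4 belinostat libraries lay above the other 8. The log2 fold change was 1.51 (SE 0.14, adjusted p 1.33e-22) against unstimulated cells, where vehicle differed by 0.22 (adjusted p 0.774). IGFBP3, a carrier of insulin-like growth factors (ENSG00000146674.16, chromosome 7, 45912245 to 45921874, minus strand), read 2568, 3891, 4072 and 3548 in unstimulated cells and 5769, 11340, 11120 and 11570 under belinostat. Replicate 17 was well below the other 3 and still lay above every unstimulated library, and the log2 fold change was 1.5 (SE 0.23) with it and 1.69 without. IGFBP5, another binding protein of the family, rose by 0.51 (SE 0.07) from 277900 ± 26500 to 396500 ± 26800 normalized counts (SD, n = 4). PTGES, the enzyme that makes prostaglandin E2 (ENSG00000148344.11, chromosome 9, 129738331 to 129753042, minus strand), read 701, 639, 548 and 636 in unstimulated cells, 546, 540.4, 550.5 and 657 in vehicle and 1452, 1143, 1024 and 1281 under belinostat (0.96, SE 0.11, adjusted p 3.46e-17). PTGDS, which makes prostaglandin D2 from the same precursor, was newly lower at -1.02 (adjusted p 0.00163).

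The other large new rises were in PRSS35, a serine protease-like gene (1.79), CPE, carboxypeptidase E (1.40), KIAA1755 (1.27), SAMD11 (1.18), the BMP antagonist NOG (1.14) and SESN3, a stress-induced sestrin (1.14). PRSS35 went from 49.2, 48.0, 68.4 and 50.8 to 140.3, 228, 180.2 and 204 normalized counts, with 45.7, 52.7, 47.5 and 21.2 in vehicle. STMN2, a neuronal microtubule regulator often used as a readout of lost neuronal gene repression, rose by 2.70 (SE 0.51) from a low level of 14.5, 11.0, 4.44 and 7.81. It read 133 in replicate 17 and 33.4 to 41.5 in the other 3, and without replicate 17 the rise was 1.98 (adjusted p 0.000169). Of the 10 tested neuronal genes under REST repression, 2 were higher (STMN2 and CELSR3 at 0.44) and 1 was lower (STMN3 at -0.40), where 5.51% and 4.77% of all tested genes were. Without replicate 17, 3 were higher and 0 lower, with STMN3 at -0.28 (adjusted p 0.0676). KRT18, a keratin, rose by 0.75 (adjusted p 8.71e-05). Replicate 17 read 1434, inside the unstimulated range of 1213 to 1530, and the other 3 read 2553 to 2950, so that the rise without it was 0.94.

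New falls were led by monocyte and eosinophil chemokines of the CC family on chromosome 17. CCL11, or eotaxin (ENSG00000172156.4, 34285742 to 34288334, plus strand), read 124, 163, 181 and 121 normalized counts in unstimulated cells, 263, 252, 184 and 204 in vehicle and 0.955, 4.88, 3.24 and 6.23 under belinostat. The transcript was close to undetected in all 4 belinostat libraries. It fell by 5.30 on the log2 scale (SE 0.44, adjusted p 1.74e-30), and without replicate 17 it fell by 4.94. CCL2, which attracts monocytes (ENSG00000108691.10, 34255274 to 34257208, plus strand), read 1123, 1214, 1345 and 1134 in unstimulated cells, 1411, 1354, 1125 and 1412 in vehicle and 211, 332, 326 and 215 under belinostat. It fell by 2.16 (SE 0.15, adjusted p 1.39e-43), while vehicle differed from unstimulated cells by 0.14 (adjusted p 0.926). CCL7 fell by 2.63 (SE 0.54) from 15.4, 18.0, 18.6 and 13.7 to 4.77, 3.66, 2.16 and 0. CCL8 was low throughout, at 5.79, 9.01, 7.10 and 10.7 against 0, 1.22, 3.24 and 2.08, and its log2 fold change of -2.34 (adjusted p 0.0261) was not called without replicate 17 (-1.88, adjusted p 0.108). Of 9 listed CC chemokines 5 were tested and 4 were lower, where 4.77% of all tested genes were, and all 4 were also lower than vehicle. CXCL12, the ligand of CXCR4, was newly lower at -0.71 (SE 0.13), from 3400, 2885, 2809 and 3004 to 1501, 1992, 2386 and 1499.

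ADAMTS8, a secreted matrix protease (ENSG00000134917.10, chromosome 11, 130404923 to 130428609, minus strand), read 818, 952, 628 and 911 in unstimulated cells, 542, 499, 502 and 574 in vehicle and 51.5, 167, 184 and 163 under belinostat. The log2 fold change was -2.55 (SE 0.28) with replicate 17 and -2.27 without it. TSPAN7, a tetraspanin, was at -2.24 (SE 0.33) and SLCO2B1, an organic anion transporter, at -1.60 (SE 0.29). For SLCO2B1 replicate 17 was the least affected library, at 52.5 against 18.3 to 19.4, and the log2 fold change without it was -2.15. The other large new falls were in COL5A3 (-1.49), RGS6 (-1.28), NOD1, a sensor of bacterial cell wall fragments (-1.26), MCUB, a subunit of the mitochondrial calcium channel (-1.26), and SERPINF1, the anti-angiogenic factor PEDF (-1.20). Developmental factors were in this class too. GLI3, a transcription factor of the Hedgehog pathway, read 855, 976, 1250 and 1107 in unstimulated cells and 593, 731, 712 and 701 under belinostat (-0.62, SE 0.11), and TWIST1 differed by -0.45 (SE 0.10). Of the 9 tested genes that the study singled out, these 2 were lower and CXCL6 and CA12 higher, where 4.77% and 5.51% of all tested genes were. ETV4, PRDM1, RELB, IL11 and TNC were not called, though TNC was called lower without replicate 17 (-0.76, DESeq2 adjusted p 0.00493). In the Hedgehog list 1 of 9 tested genes was called, BOC, which was lower, and the list median was 0.23. The Notch ligands DLL1 (-0.75) and JAG1 (-0.50) were newly lower, while the ligands DLL4 and JAG2 were not called. Mean normalized counts in unstimulated cells and under belinostat were 88.4 and 114 for DLL4 and 12.4 and 14.8 for JAG2. Of 7 tested Notch genes 2 were lower and 0 higher, beside the same shares over all tested genes, with a list median of 0.08. Without replicate 17 the differences from vehicle of MCUB (-0.67, adjusted p 0.0509), TWIST1 (-0.24, adjusted p 0.118) and JAG1 (-0.30, adjusted p 0.0648) were not called, so these 3 were in the class only with it.

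In 8 genes the change left by the cytokine pulses was turned around. APCDD1, an inhibitor of WNT signalling (ENSG00000154856.13, chromosome 18, 10454635 to 10489949, plus strand), read 727, 652, 635 and 659 in unstimulated cells, 1253, 1112, 782 and 1246 in vehicle and 134, 229.6, 202 and 170.3 under belinostat. Vehicle lay above and belinostat below unstimulated cells, with no overlap. The log2 fold change was 0.72 (adjusted p 0.00162) in vehicle and -1.87 (SE 0.17, adjusted p 9.99e-25) under belinostat, and -2.58 between the pulsed groups. The other 7 changed less. NKD2, a second WNT antagonist, differed by 0.28 in vehicle and -0.40 under belinostat, CELF2, an RNA-binding protein, by 0.61 and -0.49, SRPX2 by 0.45 and -0.47, CHSY1, a chondroitin synthase, by 0.21 and -0.25, and MGLL, a lipase, by 0.16 and -0.24. Upward turns were seen in CCND2, cyclin D2 (-0.37 and 0.61), and DENND3 (-0.22 and 0.23). Without replicate 17 CELF2 was not called against unstimulated cells (-0.37, adjusted p 0.114). The 8 were the whole class and were named after their values were seen, apart from APCDD1 and NKD2.

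A total of 30 genes that vehicle held higher moved back. One of them, MMP1, interstitial collagenase (ENSG00000196611.6, chromosome 11, 102789401 to 102798160, minus strand), read 376, 346, 226 and 251 in unstimulated cells, 767, 648, 687 and 1174 in vehicle and 482, 211, 216 and 189 under belinostat. Replicate 17 was the highest and lay above the unstimulated range. MMP1 differed from vehicle by -1.58 on the log2 scale (SE 0.31, adjusted p 2.17e-05) and from unstimulated cells by -0.13 (SE 0.31, adjusted p 0.882), or by -0.55 without replicate 17 (adjusted p 0.154). Also lower than vehicle were CST1, a cystatin (-1.27), ADAMDEC1, a protease of gut stroma and macrophages (-1.11), and WNT4 (-0.96). WNT4 remained at 0.64 above unstimulated cells (adjusted p 0.124) and its groups did not overlap, so a missing call there does not show a return to the starting level. CXCL1, another neutrophil chemokine, read 2590, 2198, 1983 and 2214 in unstimulated cells, 2997, 3373, 3816 and 4904 in vehicle and 2653, 2368, 2565 and 2774 under belinostat, a difference from vehicle of -0.54 (adjusted p 0.000902). ANK3, ROBO1 and NID2 differed from vehicle by -0.59, -0.59 and -0.58. HGF, the growth factor (-0.23), and OSMR, the receptor of one of the pulsed cytokines (-0.16), were small examples, named after their values were seen.

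The 27 genes that vehicle held lower and that moved back included NPR3, a natriuretic peptide clearance receptor, which was 1.14 higher than vehicle (adjusted p 2.92e-07), SPTLC3, a subunit of serine palmitoyltransferase (0.45), the cyclin J-like gene CCNJL (0.50) and GDNF, a neurotrophic factor (0.40). SPTLC3 differed from unstimulated cells by -0.26 without replicate 17 and was then called lower (adjusted p 0.0457), and the difference of CCNJL from vehicle was then 0.46 and not called (adjusted p 0.082). Another 10 of the 27 were nuclear copies of mitochondrial genes, MTND1P8 (0.65) the most changed of those named. The table holds no symbol of the mitochondrial genome, and reads of near-identical mitochondrial transcripts cannot be told apart from reads of these copies. All 36 well-counted copies were higher under belinostat than in vehicle, and 34 were lower in vehicle than in unstimulated cells. The copies may draw on the same reads, so they are not separate instances. They took 1.94% to 2.26% of the counts in unstimulated cells, 1.51% to 1.73% in vehicle and 1.70% to 2.16% under belinostat.

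The inflammatory fibroblast program, 11 genes that the study displayed for this state in these or sister libraries and therefore no independent evidence of its direction, was partly retained. Under belinostat 4 of the 11 were higher than in unstimulated cells (CXCL8, CXCL5, CXCL3 and COL7A1) and none lower, with a median of 0.21, against 7 higher and a median of 0.75 in vehicle. Over all tested genes 5.51% were called higher under belinostat and 1.1% in vehicle. Without replicate 17, 2 were higher (CXCL8 and CXCL5) with a median of 0.13. MMP3, stromelysin 1, was at 0.67 (adjusted p 0.284) and was undecided. Replicate 17 read 1140 and the other 3 324 to 457 beside 538, 369, 279.6 and 277 in unstimulated cells. Without replicate 17 MMP3 was called lower than vehicle (-1.49, adjusted p 4.25e-07). MMP1 and CXCL1 moved back, and PDPN at 0.15, THY1 at -0.28, FAP at -0.28 and CXCL2 at 0.06 were called in neither comparison with unstimulated cells.

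NF-kB targets and feedback genes, 18 tested, gave 2 higher (TNFAIP3 and ICAM1 at 0.37) and 4 lower, where 5.51% and 4.77% of all tested genes were. The falls were in subunits and inhibitors of the factor itself and in CSF1, namely NFKBIE at -0.46, NFKB2 at -0.25, NFKB1 at -0.16 and CSF1 at -0.21. Of these only CSF1 was lower without replicate 17. Of the 16 alternatives, ICAM1 lost its call in 8, edgeR among them (adjusted p up to 0.213 over all 16), and NFKB1 in 11. Receptors of the pulsed cytokines changed little against unstimulated cells. Against vehicle, 5 of the 11 listed were called lower under belinostat, where 3.13% of all tested genes were. The values that follow are against unstimulated cells. IL1RAP, the shared IL-1 receptor chain, rose by 0.43, and TNFRSF1A, the main TNF receptor, differed by -0.23 (SE 0.04, adjusted p 1.03e-07), the other 8 of 10 being not called. Complement gave 1 gene higher, C3, and 4 lower: CFD (-0.69), C2 (-0.54), CD55 (-0.31) and C1S (-0.28).

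Genes of the contractile stroma program, also displayed by the study, moved in both directions. ACTA2, smooth muscle actin, was newly lower at 21660, 18790, 12840 and 18410 in unstimulated cells, 13250, 16090, 13990 and 13240 in vehicle and 8967, 10520, 9951 and 10520 under belinostat (-0.84, SE 0.11, adjusted p 4.2e-11). The belinostat libraries lay below all others. ACTG2, the enteric actin, was newly lower at -0.83 (SE 0.12), and the 2 actins may share reads. MYL9 (-0.35) and AOC3 (-0.49) were lower with no call against vehicle, and MYL9 was not called without replicate 17. RGS5 and MYLK (0.29) stayed higher, and MYH11, NOTCH3 and GREM1 were not called. GREM1, a BMP antagonist, read 316 in replicate 17, and its group differed by -0.23 (adjusted p 0.863).

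BMP signalling genes, 17 tested, gave 7 higher and 2 lower, where 5.51% and 4.77% of all tested genes were called, and 8 of these 9 were new. The target genes ID1, ID2 and ID3, which encode inhibitors of helix-loop-helix factors, all rose. ID1 read 234, 211, 159.8 and 175 in unstimulated cells, 195, 168, 249.6 and 266 in vehicle and 449, 321, 291 and 337 under belinostat (0.85, SE 0.18), ID2 rose by 0.64 (SE 0.12) and ID3 by 0.49 (SE 0.10), with no overlap between belinostat and unstimulated cells in any of them. The inhibitory SMAD7, also a target, was just past the threshold (0.26, adjusted p 0.0486) and lost its call in 14 of the 16 alternatives, the one without replicate 17 among them. Of the ligands, BMP2 stayed higher (0.70) and BMP4 was newly lower (-0.48, adjusted p 0.0202, or -0.29 without replicate 17). Antagonists split as well. NOG read 78.2, 89.1, 86.1 and 109 in unstimulated cells and 279, 161, 136 and 221 under belinostat (1.14, SE 0.21), and CHRD, chordin, differed by -0.78.

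In the WNT list 1 of 18 tested genes was higher and 7 were lower, and 7 of the 25 listed genes had too few counts to be tested. The shares over all tested genes were 5.51% higher and 4.77% lower. Agonists and antagonists fell together. RSPO2, an R-spondin that amplifies WNT signals, read 715, 813, 923 and 813 in unstimulated cells, 561, 629.5, 538 and 407 in vehicle and 199, 515, 449 and 488 under belinostat (-0.99, SE 0.21, or -0.75 without replicate 17). RSPO1 (-0.53), WNT2 (-0.69) and WNT2B (-0.28) were also lower, as were the antagonists APCDD1, NKD2 and FRZB (-1.14). WNT5A stayed higher at 0.26 and was not called without replicate 17. Only RSPO1 was new by the test against vehicle, and APCDD1 and NKD2 were lower than vehicle as given above.

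**Figure D4:**
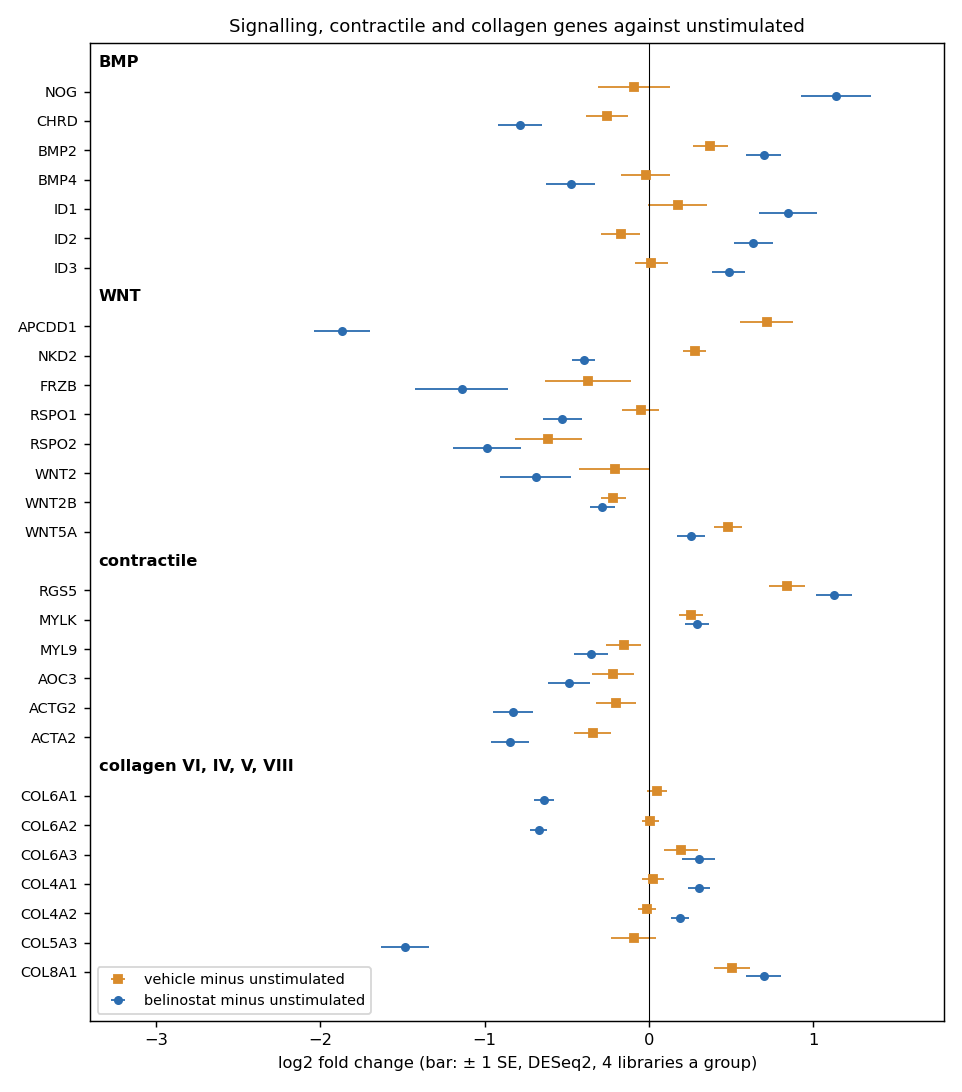
Log2 fold change with 1 SE (DESeq2, 4 libraries a group) against unstimulated cells for BMP, WNT, contractile and collagen genes, vehicle as squares and belinostat as circles. ID1, ID2, ID3 and NOG lie near 0 in vehicle and between 0.49 and 1.14 under belinostat, and COL6A1, COL6A2 and COL5A3 lie near 0 in vehicle and below it under belinostat.

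TGF-beta genes gave 3 higher and 2 lower of 14, where 5.51% and 4.77% of all tested genes were called. TGFB2 stayed higher, LTBP1, which stores the latent ligand in the matrix, was newly higher (0.36), and the receptors TGFBR2 (-0.26) and TGFBR3 (-0.40) were newly lower. Of the insulin-like growth factor genes 4 of 11 were higher and 1 lower. Beside IGFBP3 and IGFBP5, STC1 stayed higher (0.74), PAPPA, a protease that cuts the binding proteins, was higher at 0.81 (adjusted p 0.0451) and IGF2 was lower at -0.49. PAPPA read 5198 in replicate 17 and 1840 to 1983 in the others, and its fold change without it was 0.29 (adjusted p 0.0173), while the call was lost in 10 of the 16 alternatives. Transcription factors of the gut mesenchyme gave 2 higher, PRRX1 and TBX3 (0.64, SE 0.08), and 3 lower, PITX1 (-0.34), ZEB1 (-0.22) and TCF21 (-0.17), of 15. Of the 21 tested HOX genes 1 was called, HOXA7 at -0.36, against 10.3% of all tested genes, and that call was lost without replicate 17. A negative fold change was seen in 19 of the 21, with a median of -0.17 under belinostat and -0.14 in vehicle.

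Collagen VI chains did not move together. COL6A1 read 45200, 51910, 50700 and 53390 normalized counts in unstimulated cells, 53200, 52640, 50420 and 52070 in vehicle and 29110, 33200, 34010 and 33050 under belinostat, and COL6A2 read 49770, 50570, 45220 and 51060, 51080, 49020, 47360 and 50320 and 30840, 31240, 31610 and 29980. Both were lower, at -0.64 (SE 0.06) and -0.67 (SE 0.05) on the log2 scale, while COL6A3 was at 0.30 (adjusted p 0.0317) and was not called without replicate 17. The basement membrane chains COL4A1 (0.31) and COL4A2 (0.19) were newly higher and COL8A1 stayed higher (0.70). In all, 4 of 22 collagen chains were higher and 3 lower, where 5.51% and 4.77% of all tested genes were. Elastic fibre and matricellular genes, 23 tested, gave 7 higher, among them TNXB (0.87), FBLN2 (0.64), POSTN, periostin (1.01), and FBN1, fibrillin 1 (0.37), and 3 lower, among them FBLN1 (-0.42) and the cross-linking enzyme LOXL1 (-0.46). TNXB overlapped unstimulated cells through replicate 17 (761 against 1422 to 1743 in the others) and rose by 1.08 without it. Metalloproteinases and their inhibitors gave 4 small falls of 13, MMP2 (-0.23), MMP14 (-0.22), TIMP2 (-0.16) and TIMP3 (-0.20), of which TIMP3 was lost without replicate 17, and ADAMTS proteases gave ADAMTS5 higher (0.58) and ADAMTS8 and ADAMTS9 (-0.48) lower.

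**Figure D5:**
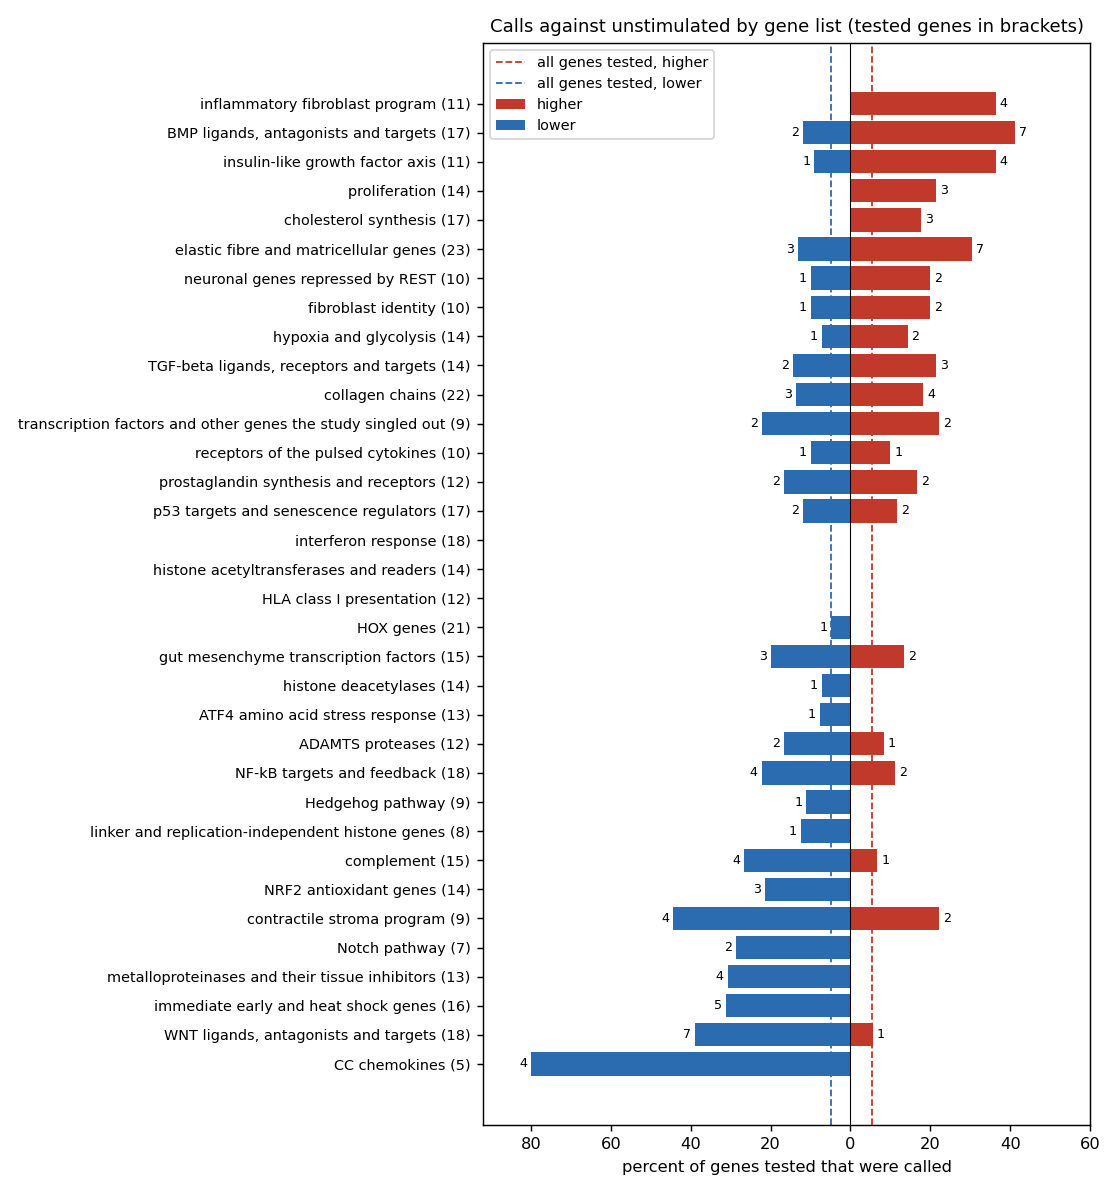
Percent of the tested genes of each list that were called higher (right) or lower (left) against unstimulated cells, with the number of genes at each bar and the number tested in brackets (dashed lines, the shares of all tested genes, 5.51% higher and 4.77% lower). BMP genes reach 7 of 17 to the right, CC chemokines 4 of 5 and WNT genes 7 of 18 to the left, and the interferon, HLA class I and acetyltransferase lists have no bar.

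The genes that encode the targets of belinostat did not pass the test. HDAC1 differed by -0.00, HDAC2 by 0.07, HDAC3 by -0.07, HDAC6 by 0.00 and HDAC8 by 0.05 on the log2 scale, with SE of 0.03, 0.06, 0.07, 0.07 and 0.09. Of 14 tested deacetylase genes 1 was called, HDAC9, which was lower at -0.56 (adjusted p 0.0306, and 0.128 without replicate 17). DESeq2 called 0 of 14 acetyltransferases and readers of acetylated histones, with 0 at an unadjusted p under 0.05 and 0 called by edgeR. Over all tested genes 10.3% were called and 22.5% had an unadjusted p under 0.05. Lists as small as those of this paragraph cannot be set apart from these shares by a lack of calls. The interferon response list also gave 0 calls of 18 with DESeq2 and 0 with edgeR, with 1 at an unadjusted p under 0.05. Its median was -0.32, and it was -0.19 without belinostat replicate 17 and 0.0089 without unstimulated replicate 4. HLA class I presentation gave 0 of 12 with both tools and 0 at an unadjusted p under 0.05.

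Proliferation genes gave 3 higher of 14, TOP2A (0.95), MKI67 (1.42) and TYMS (0.35, adjusted p 0.065 without replicate 17), with a median of 0.33 that was 0.38 in vehicle. For this and the next lists, the shares over all tested genes were 5.51% higher and 4.77% lower. MKI67 read 14.5, 11.0, 9.77 and 12.7 in unstimulated cells and 11.5, 30.5, 44.2 and 42.6 under belinostat, and replicate 17 alone lay in the unstimulated range. Among p53 targets and senescence regulators MDM2 (0.18) and ZMAT3 (0.27) were higher, CDKN1C (-0.43) and CDKN2A (-0.28) lower, of 17. CDKN2A lost its call in 12 of the 16 alternatives, edgeR among them (adjusted p up to 0.241 over all 16). All 17 cholesterol synthesis genes had a positive fold change, with a median of 0.36, of which 3 were called, among them SQLE at 0.44 and FDFT1 at 0.36. Their median in vehicle was 0.25, and 0 of them were called between belinostat and vehicle. Without replicate 17 the median was 0.16 and FDFT1 alone was called, at 0.20, and SQLE lost its call in 11 of the 16 alternatives. NRF2 antioxidant genes gave 3 lower of 14, OSGIN1 (-0.54), HMOX1 (-0.40) and GCLM (-0.28), and 9 lower without replicate 17. Immediate early and heat shock genes gave 5 lower of 16, EGR2 (-0.98), JUNB (-0.29), JUN (-0.19), HSPA1A (-0.24) and HSPA1B (-0.17), and 2 without replicate 17. HSPA1A and HSPA1B are near-identical copies. In the amino acid stress list of ATF4 targets VLDLR alone was called (-0.41), of 13, and the median log2 fold change was 0.28 with belinostat replicate 17 and -0.11 without it, so the direction of this list rested on 1 library. In the hypoxia and glycolysis list ALDOC (0.76, or 0.31 and not called without replicate 17) and PFKFB3 (0.33) were higher and SLC2A1, the glucose transporter GLUT1, lower (-0.47), of 14.

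Markers of other cell types were checked as whole lists. Epithelial markers summed to 1621 to 1974 normalized counts in unstimulated cells and 1992 to 3488 under belinostat, nearly all of it from KRT18 and KRT8 (0.27, adjusted p 0.0546 without replicate 17), while EPCAM reached at most 5.73 in any of the 8 libraries. Endothelial markers summed to 7815 to 8478 and 8652 to 10260, carried by TEK (0.22), with PECAM1 at most 7.64. Leukocyte markers summed to 263 to 501 and 298 to 726.5, from CD68 and from CD14, which rose by 1.45 (adjusted p 0.00109), with PTPRC at most 4.77. Glial and neuronal markers summed to 1261 to 1468 and 1075 to 1209, mostly from UCHL1. The defining markers EPCAM, PECAM1 and PTPRC thus stayed at or near 0, and the part of other cell types in the results was not tested. In these bulk libraries fewer cells with a transcript and less of it per cell cannot be told apart.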

How the data were processed

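RNA was made into libraries with the NEBNext Ultra II kit, sequenced on a NextSeq500 and quantified by the authors with kallisto 0.48.0. The deposited table holds an estimated count for each symbol and library, not scaled to library size. Values were rounded to whole numbers here, and no column was left unused. The submitters' processing notes give hg38, and gene coordinates were looked up by symbol in GENCODE on GRCh38. DESeq2 1.42.0 (R 4.3.3) was fitted to all 16 libraries with group as the only factor, and a gene was called at a two-sided Wald p under 0.05 after Benjamini-Hochberg adjustment over all genes tested. edgeR 4.0.16 was the other test. Other scaling, a filter of 10 counts in 4 libraries, a fit of the groups compared only and each library left out were the alternatives. Named genes were the largest changes in each class among genes whose groups did not overlap and whose normalized counts averaged 50 or more, the called genes of each list (up to 8), and the genes the study displayed. Some genes that met this rule are not reported here. Members and lists were chosen with earlier results of these data known. The scripts were tested on simulated data. Nothing in the labels says that the 4 samples of a group were separate cultures, so p-values measure only the spread between these samples.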

Additional observations from a re-analysis of the deposited data

Results flagged for a closer look

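Of 418 groups of 4 libraries examined over the 209 named genes, 34 held a library whose gap to its nearest neighbour took an unusually large part of the group's range (Dixon's 95% limit). Chance flags about 1 in 20 groups. Belinostat replicate 17 was that library for 23 of the 34.

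In normalized counts, replicate 17 was far above the other 3 belinostat libraries for CA12 (619 against 138 to 206), MME (2757 against 914 to 1047), SLCO2B1 (52.5 against 18.3 to 19.4), SPTLC3 (1008 against 699.7 to 744) and MMP1 (482 against 189 to 216). It was also the high library for CSF1 (4392 against 3832 to 3881), LOXL2 (5026 against 3885 to 4015), BMP2 (2512 against 1681 to 1796), PAPPA (5198 against 1840 to 1983) and STC1 (729 against 429 to 476). Further high values in replicate 17 were those of PRRX1 (536 against 275 to 315), STMN2 (133 against 33.4 to 41.5), MMP3 (1140 against 324 to 457), HDAC6 (787 against 711 to 712) and PAPSS2 (2628 against 2462 to 2478). Replicate 17 was far below the other 3 for IGFBP3 (5769 against 11120 to 11570), ADAMTS8 (51.5 against 163 to 184), ACTG2 (3487 against 4330 to 4424), COL8A1 (443 against 624 to 657) and LOXL1 (970 against 1496 to 1600). It was the low library also for FBLN1 (13860 against 19120 to 19700), WNT2B (2720 against 3481 to 3548) and C1S (43530 against 46990 to 47510). The cause of the difference between replicate 17 and the other 3 was not tested.

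Other belinostat libraries that stood apart were replicate 19 for MBP (84.2 against 38.2 to 45.2) and replicate 18 for MTND4P24 (2316 against 2754 to 2822). Unstimulated replicate 1 stood apart for MME (706 against 357 to 408), LOXL1 (1735 against 1992 to 2026), CD55 (1090 against 935 to 953) and HGF (1323 against 1414 to 1427). Unstimulated replicate 3 stood apart for PRSS35 (68.4 against 48.0 to 50.8), MMP2 (52350 against 51220 to 51340) and ID3 (820.3 against 981 to 1003). Unstimulated replicate 4 stood apart for MBP (132 against 148 to 150) and HDAC9 (64.4 against 70.1 to 71.0).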

How the results depend on the processing

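The alternatives were 16 in number. The count of genes called against unstimulated cells was 1279 with edgeR, 1447 with TMM factors, 1466 with the filter on low counts and 989 to 1836 when 1 library was left out, and it was 876 when only the groups compared were fitted. Genes that stayed changed numbered 94 with edgeR and 92 to 197 with 1 library left out, the lowest without unstimulated replicate 2 and the highest without belinostat replicate 17. New genes numbered 406 to 641 over all alternatives. Genes that moved back numbered 34 with edgeR and 34 to 118 with 1 library left out, the lowest without vehicle replicate 16 and the highest without belinostat replicate 17. The cause was not tested. Of the 172 named genes that were called, 131 were called in every alternative, and 41 were lost in at least 1. No gene named was called in the opposite direction in any alternative, although some that were not called lay on either side of 0. Medians of a list were taken over the same genes in every alternative. With 1 library left out, the median of the interferon list (-0.32) ran from -0.55 to 0.0089, crossing 0 without unstimulated replicate 4. That of the ATF4 amino acid stress list (0.28) ran from -0.11 to 0.37, crossing 0 without belinostat replicate 17. TMM factors moved the share of calls that were higher from 53.6% to 49.1%. No paired analysis was possible because the groups share no replicate numbers in the labels. Depth of 14.4 to 19.5 M counts limits what can be said of genes with few counts, such as CCL7 and CCL8, and 1 cell line limits the comparison to that line.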
